A study of Arabidopsis thaliana with 24 samples.

Results

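Small heat shock proteins and the proteins that work with them were followed in salt-treated Arabidopsis seedlings through 7 genes, chosen by name: ATHSP22.0, AT1G53540, AT2G29500 and AT5G37670, which encode small heat shock proteins, AT5G48570 and AT2G20560, which encode co-chaperones, and HSA32, which encodes a heat acclimation protein. Each was read by 1 of the 13513 probe sets that GEO's platform annotation assigns to a single gene, among 22810 on the array. Roots and shoots came from Col-0 seedlings whose medium was brought to 150 mM NaCl on day 16, after 3 h of light in 16 h days, with 0.5, 1, 3, 6, 12 and 24 h of salt and 2 arrays per tissue and time, 24 arrays in all. Untreated plants were not analysed here, so that every change is given against 0.5 h of salt in the same tissue, and what salt, mixing of the medium and time of day each contributed cannot be told apart. The 24 h samples fall at about the same time of day as the 0.5 h samples, the other times later in the day. The labels give a growth room temperature of 24 with no unit, and no heat treatment. Because each RNA came from a whole tissue sample, roots or shoots, more cells with a transcript and more transcript per cell cannot be told apart, and the labels leave unsaid whether replicate arrays hold separate plantings, so that each p-value reflects array-to-array spread alone.

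Small heat shock proteins bind partly unfolded proteins and hold them in a form that can be refolded, without using ATP themselves. Refolding is done by the HSP70 and HSP100 chaperones, and co-chaperones such as the DnaJ-type proteins deliver clients to HSP70 and drive its ATP cycle. Plants have many more small heat shock proteins than animals, with families in the cytosol, the endoplasmic reticulum, mitochondria, plastids and peroxisomes. Most are nearly silent in unstressed vegetative tissue, are switched on by heat through heat shock factors, and also accumulate in maturing seeds.

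All 7 genes stood higher at 24 h than at 0.5 h of salt, in roots and in shoots. In roots the log2 difference ran between 1.87 for the DnaJ-type gene AT2G20560 and 5.48 for ATHSP22.0, with a median of 2.79 against -0.14 over all probe sets tested. In shoots it ran between 2.27 for AT2G29500 and 3.69 for HSA32, with a median of 2.71 against -0.02. Every difference is of log2(signal + 2.19), tested with limma across 15195 probe sets, and a call needed a Benjamini-Hochberg adjusted p under 0.05 and at least a 2-fold difference. All 7 genes passed in roots, where 8.02% of probe sets were called higher, and all 7 in shoots, where 7.48% were. Both 24 h arrays lay above both 0.5 h arrays for 7 of 7 genes in roots and 7 of 7 in shoots, against 29.4% and 34.9% of probe sets. The 7 genes had been picked with such changes in view, so the counts describe them and are no independent evidence. On the log2 scale, differences of low signals are understated by the added constant.

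The 7 calls in roots at 24 h held whichever single array was left out, and those in shoots held except for AT2G29500, described with that gene. The calls came at different times: in roots 3 of 7 genes were called at 3 h, where 8.19% of probe sets were, and all 7 at 12 h, where 6.84% were. Leaving out 1 array gave between 0 and 4 at 3 h and between 6 and 7 at 12 h. In shoots no gene was called at 3 h, 1 at 6 h and 2 at 12 h, against 5.50%, 7.82% and 7.55% of probe sets. The tests of the difference between tissues are given further on. The plot of signals by time shows both arrays of each group.

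**Figure D1:**
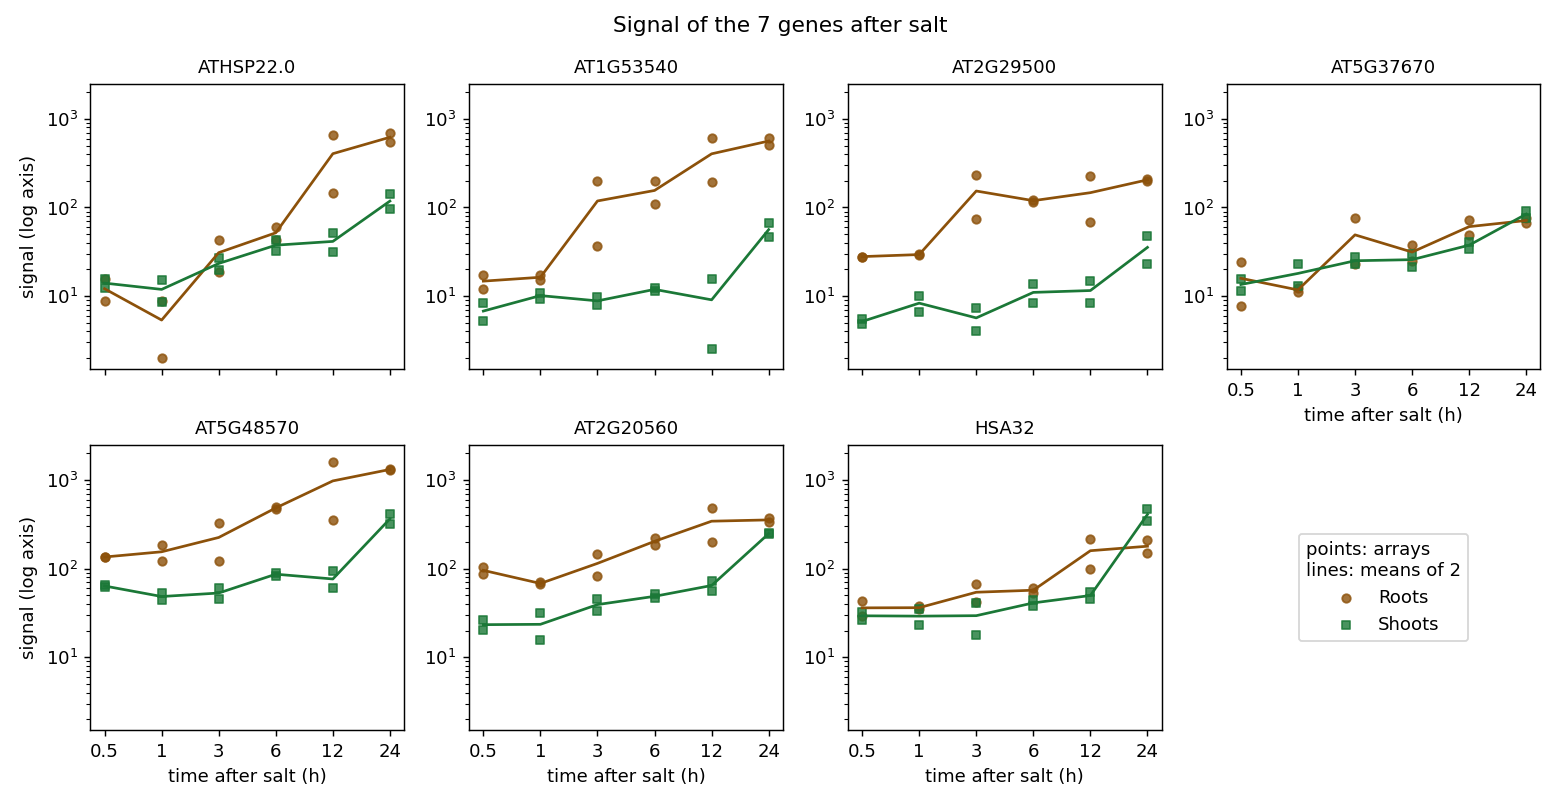
Signal of each of the 7 genes in roots and shoots against hours of salt. Points are the single arrays, lines join the means of 2 arrays, and the signal axis is logarithmic. In shoots the highest mean of all 7 genes is at 24 h, and in roots the 12 and 24 h means of all 7 lie above the 0.5 h means.

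The deposited signals had been scaled to a common trimmed mean, and array medians lay between 42.0 and 47.2 in roots and between 37.2 and 42.1 in shoots. The tissue labels fitted most of their markers, but not all. PRK, a Calvin cycle enzyme of green tissue, averaged 28.1 ± 13.0 in roots and 3845 ± 745 in shoots (SD, n = 12 each). PYK10, a root beta-glucosidase, averaged 3484 ± 429.7 in roots and 474 ± 227 in shoots. The root marker EXPA18 was higher in roots over all times by 0.84, under the 2-fold limit, and was not called. Its mean signal was lower in roots than in shoots at 3 h, at 17.5 against 23.0, and at 6 h, at 18.9 against 22.1. The summed signal of 5 shoot markers in roots was 579 and 461 on the 24 h arrays, against 222 and 287 on the 0.5 h arrays, and 2 of the 5, RCA and PSAE-1, were called higher there, by 1.18 and 1.19; in shoots the lowest sum at any time was 10646. At 6 h the same 2 were called lower in roots, at -1.21 and -1.30, with a summed signal of 123 and 129. Of 3 root markers, EXPA7 and EXPA18, expansins of root hairs, were called lower in roots at 3 h, at -1.63 and -1.39, and at 6 h, at -1.58 and -1.34, the times at which 3 and 5 of the 7 genes were called higher in roots. The 3 root markers in roots summed to signals of 2873 and 3304 on the 3 h arrays and 3808 and 3116 on the 6 h arrays, against 3124 and 3372 on the 0.5 h arrays. PYK10 alone gave 2841 and 3274 of the 3 h sums, so the sums do not show the fall of EXPA7 and EXPA18. In shoots the third, PYK10, was called lower at 24 h, at -1.12. The part of these marker shifts in the results was not tested. All probe sets together shifted in roots by a median of -0.19 at 3 h, -0.21 at 6 h, -0.11 at 12 h and -0.14 at 24 h, and in shoots by between -0.02 and 0.07. AT4G34270 and GAPC2, taken as reference genes of even level, stood in roots at -0.62 and -0.67 at 6 h. At 24 h in roots they stood at -0.35 and -0.16. Neither was called at any time, every difference being under the 2-fold limit. At 6 h in roots the adjusted p of the limma test was 0.00427 for AT4G34270 and 1.53e-04 for GAPC2, so they were not even there. GAPC2 was also lower in roots at 3 h (adjusted p = 0.0146) and 12 h (adjusted p = 0.0238), and in shoots at 6 h (adjusted p = 0.0179). The part of these reference genes was not tested either.

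One pair of arrays stood apart. The 2 root arrays of 12 h correlated at r = 0.857 across probe sets and differed by at least 2-fold at 19.1% of them, while no other pair passed 5.84%. The 12 h differences of the 7 genes in roots are given below also with each of these 2 arrays left out. The fit pools the spread of each probe set over all 12 groups, so a gene's standard error against 0.5 h is the same at every time. At 12 h in roots it does not show that pair's own spread, which also enters the errors of the other times. The filter kept a probe set that reached 41.7, the median of all values, on at least 2 arrays, which all 7 genes did, on between 7 arrays for AT5G37670 and 24 for AT5G48570. A gene that passed such a filter through its late arrays alone had to differ between times. ATHSP22.0, AT1G53540, AT2G29500 and AT5G37670 were under 41.7 on every 0.5 and 1 h array of both tissues. These genes passed through later arrays alone, so their tests against 0.5 and 1 h are not independent of the filter. Among the 0.5 and 1 h arrays HSA32 reached 41.7 only on replicate 1 of the 0.5 h roots, at 42.8. It too needed later arrays to pass, so its tests are not independent of the filter either.

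ATHSP22.0 (locus AT4G10250) encodes a small heat shock protein that resides in the endoplasmic reticulum, where secreted and membrane proteins fold. Its root signals were 15.5 and 8.70 after 0.5 h, 1.99 and 8.73 after 1 h, 43.1 and 18.7 after 3 h, 60.3 and 43.3 after 6 h, 146 and 663 after 12 h, and 687 and 554 after 24 h. The pairs at 12 and 24 h lay clear of all earlier root arrays, with no overlap. In shoots it gave 15.6 and 12.4 after 0.5 h, 8.52 and 15.3 after 1 h, 27.1 and 19.6 after 3 h, 32.3 and 42.7 after 6 h, 51.4 and 31.4 after 12 h, and 141 and 95.0 after 24 h. The shoot pairs of 3, 6 and 12 h overlapped with a neighbour in the order of levels, and only the 24 h pair lay above all other shoot arrays. The root difference from 0.5 h was 1.94 ± 0.58 (SE; adjusted p = 0.0109) at 6 h, 4.50 ± 0.58 (SE; adjusted p = 6.90e-05) at 12 h and 5.48 ± 0.58 (SE; adjusted p = 1.08e-05) at 24 h, the last a 44.6-fold difference. At 3 h it was 1.15 (adjusted p = 0.132) and did not pass. The shoot difference passed at 24 h, at 2.87 ± 0.58 (SE; adjusted p = 0.00126), and missed at 12 h, at 1.40 (adjusted p = 0.0784). The 6 h root call ended without replicate 2 of 0.5 h (1.59, adjusted p = 0.0912) and without replicate 1 of 6 h (1.71, adjusted p = 0.0740), and the 12 h difference was 5.58 without replicate 1 and 3.42 without replicate 2.

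AT1G53540 encodes a class I small heat shock protein, a family of the cytosol that forms large oligomers. Root arrays read 17.5 and 12.02 after 0.5 h, 15.3 and 17.3 after 1 h, 200.1 and 36.8 after 3 h, 110.5 and 201 after 6 h, 614 and 192 after 12 h, and 612 and 512 after 24 h. Both arrays of 3 h and later exceeded both of 0.5 and 1 h, although the 2 arrays of 3 h and of 12 h were far apart. Shoot arrays read 5.26 and 8.28 after 0.5 h, 10.9 and 9.30 after 1 h, 9.64 and 8.02 after 3 h, 12.3 and 11.5 after 6 h, 15.6 and 2.51 after 12 h, and 66.2 and 46.4 after 24 h. The 24 h shoot pair stood alone above the rest, whose ranges largely overlapped, and a single 12 h array held the lowest signal. Roots passed the test from 3 h on, with differences of 2.41 ± 0.66 (SE; adjusted p = 0.0112) at 3 h, 3.18 ± 0.66 (SE; adjusted p = 0.00105) at 6 h, 4.37 ± 0.66 (SE; adjusted p = 2.38e-04) at 12 h and 5.07 ± 0.66 (SE; adjusted p = 6.36e-05) at 24 h. In shoots the gene passed at 24 h, at 2.71 ± 0.66 (SE; adjusted p = 0.00526). The 3 h call in roots ended without replicate 1 of 3 h (1.22, adjusted p = 0.181) and without replicate 2 of 0.5 h (2.18, adjusted p = 0.0772). Its 12 h difference was 3.54 without replicate 1 and 5.21 without replicate 2, still called either way.

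AT2G29500 is a second class I gene of the cytosol. The root signals were 27.8 and 28.0 after 0.5 h, 29.1 and 29.7 after 1 h, 234 and 73.3 after 3 h, 117 and 122 after 6 h, 226 and 68.3 after 12 h, and 200.4 and 210.0 after 24 h. The first 4 arrays lay within a narrow band and every later array lay above it. In shoots the gene read 5.47 and 4.87 after 0.5 h, 9.97 and 6.67 after 1 h, 4.08 and 7.26 after 3 h, 8.39 and 13.6 after 6 h, 8.40 and 14.7 after 12 h, and 48.1 and 22.8 after 24 h, so that all shoot arrays before 24 h were below all root arrays. Root differences of 2.15 ± 0.52 (SE; adjusted p = 0.00521), 2.01 ± 0.52 (SE; adjusted p = 0.00429), 2.08 ± 0.52 (SE; adjusted p = 0.00631) and 2.79 ± 0.52 (SE; adjusted p = 8.13e-04) were called at 3, 6, 12 and 24 h, and the 4 groups from 3 h on overlapped with their neighbours in level, with no call between 3 and 6 h (-0.13), 6 and 12 h (0.06) or 12 and 24 h (0.71). In shoots the 24 h difference was 2.27 ± 0.52 (SE; adjusted p = 0.00304), which without replicate 1 of 24 h was 1.77, adjusted p = 0.0515. The root calls at 3 and 12 h each ended without replicate 1 of their own time (3 h, 1.33, adjusted p = 0.0835, and 12 h, 1.23, adjusted p = 0.0952). Without replicate 2 of 12 h the 12 h difference was 2.92.

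AT5G37670 encodes a small heat shock protein of peroxisomes, the organelles of fatty acid breakdown and photorespiration. In roots it read 7.79 and 24.0 after 0.5 h, 12.4 and 11.1 after 1 h, 75.3 and 22.9 after 3 h, 24.9 and 37.8 after 6 h, 48.7 and 72.8 after 12 h, and 76.5 and 66.1 after 24 h, and in shoots 11.5 and 15.5 after 0.5 h, 12.9 and 23.1 after 1 h, 22.8 and 27.3 after 3 h, 21.4 and 30.1 after 6 h, 33.9 and 41.2 after 12 h, and 92.1 and 76.3 after 24 h. The ranges of the 2 tissues overlapped at 4 of the 6 times, and those of all 11 neighbouring groups in its order of levels overlapped. It was called in roots at 3 h, at 1.45 ± 0.47 (SE; adjusted p = 0.0242), at 12 h, at 1.94 ± 0.47 (SE; adjusted p = 0.00515), and at 24 h, at 2.18 ± 0.47 (SE; adjusted p = 0.00225), but at 6 h stood at 1.03 (adjusted p = 0.0767). Shoots passed at 12 h, at 1.35 ± 0.47 (SE; adjusted p = 0.0373), and at 24 h, at 2.47 ± 0.47 (SE; adjusted p = 7.65e-04). At 24 h the root change minus the shoot change was -0.28 ± 0.66 (SE; adjusted p = 0.778). The 3 h call rested on 1 array of each time: without replicate 1 of 3 h it was 0.63, adjusted p = 0.333, and without replicate 1 of 0.5 h it was 0.75, adjusted p = 0.288. It also ended with roots fitted alone (1.45, adjusted p = 0.0795) and with a pseudocount of 16 (0.95). At 12 h in roots the difference was 2.22 without replicate 1 and 1.66 without replicate 2, and without replicate 1 of 0.5 h it was 1.24, adjusted p = 0.0940. The 12 h call in shoots was lost without any 1 of the 4 arrays of 0.5 and 12 h, at adjusted p between 0.0780 and 0.178.

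AT5G48570 (ROF2, FKBP65) encodes a peptidyl-prolyl isomerase of the FK506-binding family, which speeds a slow step of protein folding. Its root signals were 136 and 135 after 0.5 h, 123 and 187 after 1 h, 326 and 123 after 3 h, 471 and 498 after 6 h, 1602 and 355 after 12 h, and 1296 and 1339 after 24 h. Arrays of 0.5, 1 and 3 h overlapped, and both arrays of 6, 12 and 24 h lay above them. In shoots it read 62.6 and 65.0 after 0.5 h, 44.2 and 52.8 after 1 h, 44.9 and 61.3 after 3 h, 82.9 and 90.3 after 6 h, 93.1 and 59.8 after 12 h, and 410.3 and 319.9 after 24 h, with only the 24 h pair clear of the rest. The root difference was 0.56 (adjusted p = 0.399) at 3 h, which did not pass, 1.82 ± 0.50 (SE; adjusted p = 0.00653) at 6 h, 2.46 ± 0.50 (SE; adjusted p = 0.00170) at 12 h and 3.26 ± 0.50 (SE; adjusted p = 2.11e-04) at 24 h. Shoots were called at 24 h, at 2.47 ± 0.50 (SE; adjusted p = 0.00129), whereas their 12 h difference was 0.22 (adjusted p = 0.779). No call of this gene against 0.5 h was lost by leaving out 1 array, but the size at 12 h in roots moved, at 1.38 without replicate 1 and 3.54 without replicate 2.

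AT2G20560 encodes a DnaJ-type co-chaperone, of the class that stimulates HSP70. Root arrays gave 104 and 87.4 after 0.5 h, 69.9 and 66.3 after 1 h, 146 and 83.3 after 3 h, 184 and 223 after 6 h, 489 and 198 after 12 h, and 372 and 338 after 24 h. The 1 h pair was the lowest and the 12 and 24 h pairs overlapped at the top. The shoots held 20.1 and 26.5 after 0.5 h, 15.8 and 31.2 after 1 h, 33.1 and 45.6 after 3 h, 51.3 and 46.2 after 6 h, 73.0 and 56.1 after 12 h, and 254 and 243 after 24 h, and both arrays of 3 h and of every later time there exceeded both of 0.5 h. In roots it was called at 6 h, at 1.07 ± 0.35 (SE; adjusted p = 0.0196), at 12 h, at 1.68 ± 0.35 (SE; adjusted p = 0.00223), and at 24 h, at 1.87 ± 0.35 (SE; adjusted p = 9.76e-04). Shoots passed at 6 h, at 1.01 ± 0.35 (SE; adjusted p = 0.0405), at 12 h, at 1.39 ± 0.35 (SE; adjusted p = 0.00692), and at 24 h, at 3.31 ± 0.35 (SE; adjusted p = 3.57e-06), a 9.90-fold difference against 3.66-fold in roots. The 6 h calls stood near both limits: in roots the difference without replicate 2 of 6 h was 0.93, adjusted p = 0.110, and without replicate 2 of 0.5 h it was 0.95, adjusted p = 0.106. In shoots the 6 h difference was 0.95, adjusted p = 0.0450, with the constant doubled, and 0.88, adjusted p = 0.0900, with quantile normalization. With single arrays left out it lay between 0.82 and 1.19, and the call ended in some of these fits. The 12 h shoot call also ended without replicate 1 of 0.5 h (1.20, adjusted p = 0.0652) or of 12 h (1.20, adjusted p = 0.0634). The 12 h root difference was 1.04 without replicate 1 and 2.33 without replicate 2.

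HSA32 (locus AT4G21320) encodes a protein needed to keep acquired heat tolerance over long recovery, unrelated in sequence to the small heat shock proteins. Its root signals were 42.8 and 29.4 after 0.5 h, 37.5 and 35.0 after 1 h, 66.3 and 42.1 after 3 h, 53.3 and 61.0 after 6 h, 100.4 and 218 after 12 h, and 209.9 and 149 after 24 h. Root arrays up to 6 h overlapped in part, and the 12 and 24 h pairs lay above them. In shoots they were 32.5 and 26.2 after 0.5 h, 34.9 and 23.4 after 1 h, 17.9 and 41.0 after 3 h, 38.0 and 44.1 after 6 h, 53.9 and 45.6 after 12 h, and 474 and 345 after 24 h. Both 24 h shoot arrays exceeded every other array of the gene, roots included, while no earlier shoot time passed. The root difference was 1.997 ± 0.37 (SE; adjusted p = 9.21e-04) at 12 h and 2.25 ± 0.37 (SE; adjusted p = 3.70e-04) at 24 h, against 0.65 (adjusted p = 0.155) at 6 h. The shoot difference was 0.72 (adjusted p = 0.155) at 12 h, not called, and 3.69 ± 0.37 (SE; adjusted p = 1.83e-06) at 24 h. Between 12 and 24 h alone the shoots rose by 2.97 ± 0.37 (SE; adjusted p = 4.33e-05). At 12 h the root difference was 2.55 without replicate 1 and 1.44 without replicate 2.

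In roots the genes were first called at different times, and differences between genes were not tested. At 1 h no gene was called in either tissue, with 0.375% of probe sets called higher in roots and 0.467% in shoots. At 3 h the 3 genes called in roots were the small heat shock protein genes AT1G53540, AT2G29500 and AT5G37670, against 8.19% of probe sets. At 6 h 5 genes were called, against 11.0%: ATHSP22.0, AT1G53540, AT2G29500, AT5G48570 and AT2G20560. All 7 were called at 12 h, against 6.84%. The median difference over the 7 genes was 1.15, 1.82, 2.08 and 2.79 at 3, 6, 12 and 24 h.

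Set against the time before, 4 genes rose between 1 and 3 h in roots, where 4.30% of probe sets were called higher. They were the 4 small heat shock protein genes, with 2.19 ± 0.58 (SE; adjusted p = 0.0191) for ATHSP22.0, 2.27 ± 0.66 (SE; adjusted p = 0.0297) for AT1G53540, 2.08 ± 0.52 (SE; adjusted p = 0.0151) for AT2G29500 and 1.66 ± 0.47 (SE; adjusted p = 0.0246) for AT5G37670. The other 3 genes had 0.40 for AT5G48570, 0.68 for AT2G20560 and 0.52 for HSA32, none called. The 4 genes called here are those that passed the filter through later arrays alone. ATHSP22.0, not called against 0.5 h, had 1 h root signals of 1.99 and 8.73, against 15.5 and 8.70 at 0.5 h. Between 6 and 12 h 2 genes rose, ATHSP22.0 by 2.56 ± 0.58 (SE; adjusted p = 0.00786) and HSA32 by 1.35 ± 0.37 (SE; adjusted p = 0.0199), against 3.89% of probe sets. Without replicate 1 of 12 h these were 3.64 and 1.90, and without replicate 2 of 12 h they were 1.48, adjusted p = 0.129, and 0.79, adjusted p = 0.263. No gene was called between 3 and 6 h or between 12 and 24 h, where 0.303% and 0.717% of probe sets were called higher. Each of the 4 rises between 1 and 3 h missed under 3 of the arrays left out: all 4 without replicate 1 of 3 h or replicate 1 of 1 h, AT1G53540, AT2G29500 and AT5G37670 without replicate 2 of 1 h, and ATHSP22.0 without replicate 2 of 3 h. Without replicate 1 of 3 h the sizes were 1.63 for ATHSP22.0, 1.08 for AT1G53540, 1.26 for AT2G29500 and 0.85 for AT5G37670. With roots fitted alone, none of the rises between 1 and 3 h or between 6 and 12 h passed.

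**Figure D2:**
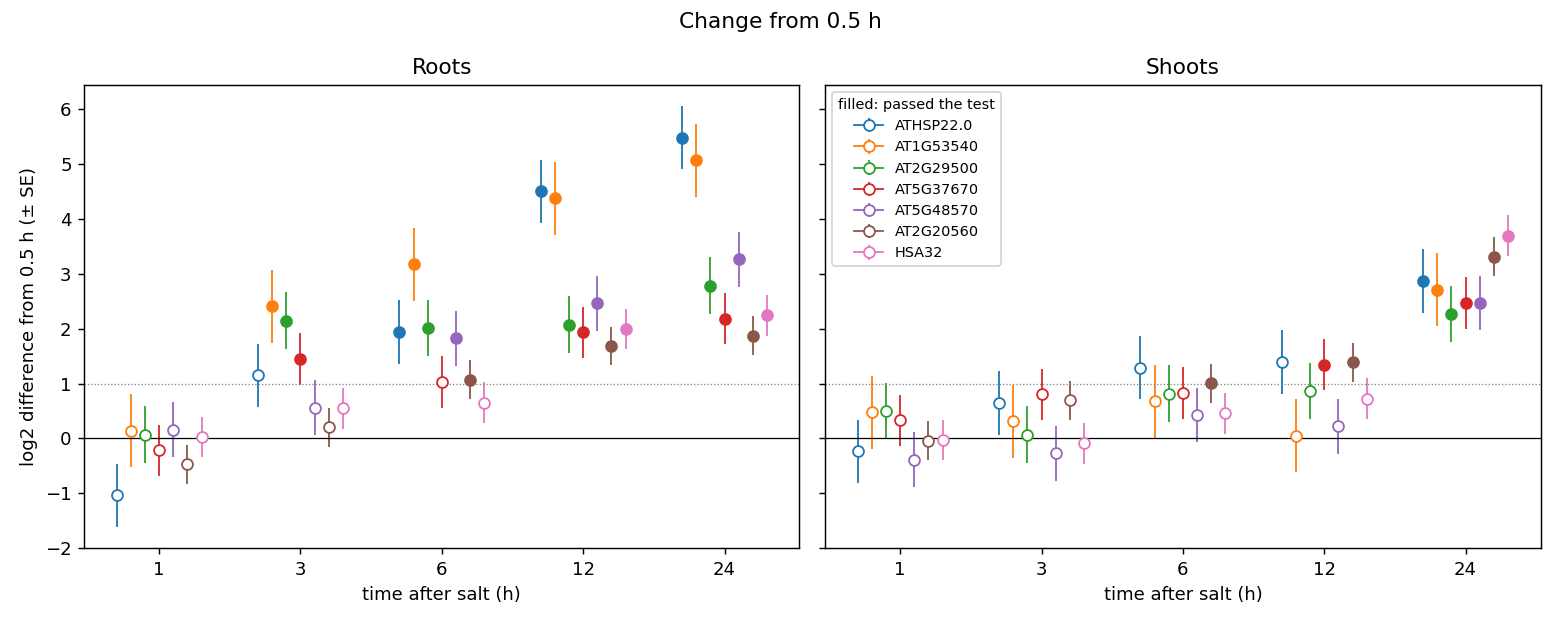
Log2 difference from 0.5 h of salt in roots (left) and shoots (right) for the 7 genes at each later time, with standard errors of the limma fit. Filled points passed the test. All 7 are filled at 12 and 24 h in roots, and in shoots all 7 are filled only at 24 h.

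In roots most of the 7 genes differed widely between the 2 arrays of 3 h and between those of 12 h. Over all probe sets the 3 h pair correlated at r = 0.982, against 0.857 for the 12 h pair. At 3 h replicate 1 was higher than replicate 2 for 7 of 7 genes and by at least 2-fold for 5, while 1.48% of all probe sets differed that far between these arrays. The gap was 2.38 on the log2 scale for AT1G53540, 1.64 for AT2G29500, 1.63 for AT5G37670, 1.39 for AT5G48570 and 1.11 for ATHSP22.0, and 0.79 and 0.63 for AT2G20560 and HSA32. Without replicate 1 of 3 h no gene was called at 3 h. At 12 h the gap did not run one way: replicate 1 was higher for AT5G48570 by 2.17, AT2G29500 by 1.69, AT1G53540 by 1.66 and AT2G20560 by 1.30. For ATHSP22.0, HSA32 and AT5G37670 replicate 1 minus replicate 2 was -2.16, -1.10 and -0.56. In replicate 1 the first 4 of these genes were nearer to their 24 h mean than to their 6 h mean, and ATHSP22.0 and HSA32 nearer to 6 h, and in replicate 2 each of these 6 was the other way round. AT5G37670 was nearer to 24 h in both.

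**Figure D3:**
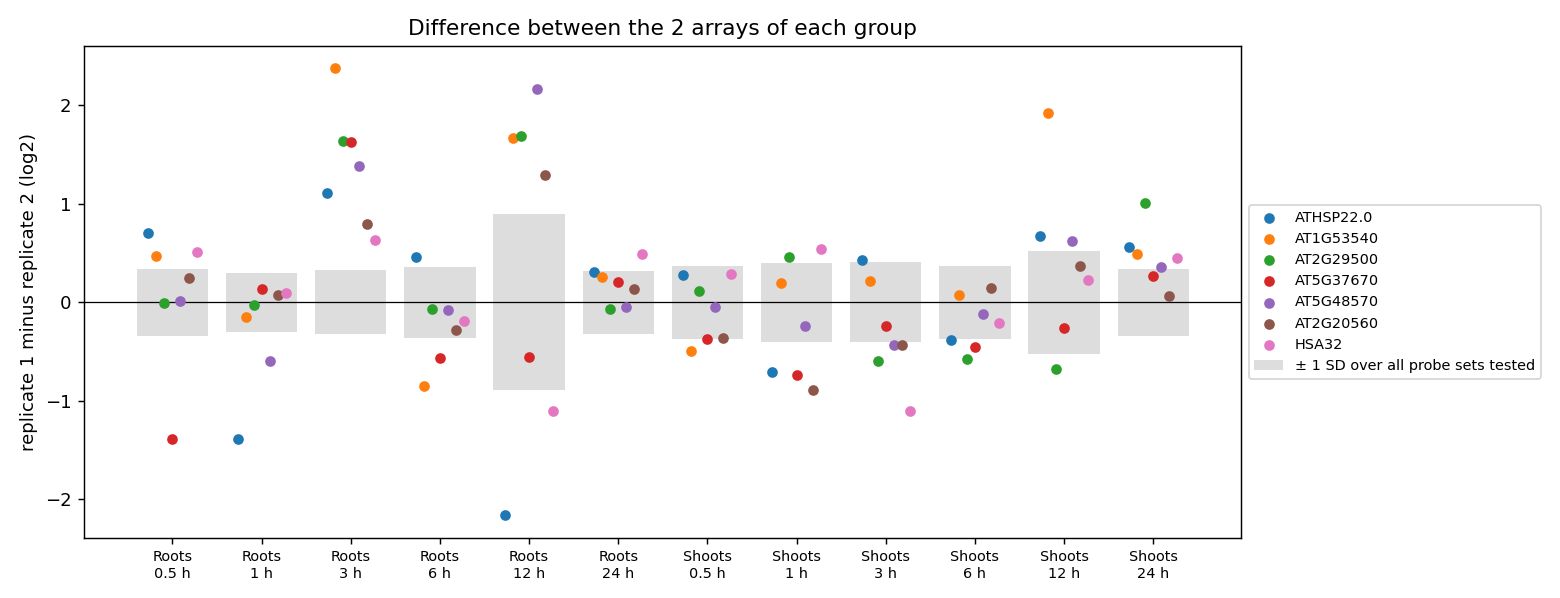
Difference between the 2 arrays of each group, replicate 1 minus replicate 2 on the log2 scale, for the 7 genes. All 7 points are above 0 at 3 h in roots, and the 12 h root points spread on both sides of 0.

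In shoots most calls came at 24 h. At 3 h none was called, against 5.50% of probe sets higher. At 6 h 1 was called, AT2G20560, against 7.82%, and at 12 h 2, AT2G20560 and AT5G37670, against 7.55%. Both arrays lay above both of 0.5 h for 7 of 7 genes at 6 h and 5 of 7 at 12 h, shares of 38.9% and 34.9% over all probe sets. Between 12 and 24 h 4 genes rose, against 2.92% of probe sets: HSA32 as given above, AT5G48570 by 2.25 ± 0.50 (SE; adjusted p = 0.00714), AT1G53540 by 2.65 ± 0.66 (SE; adjusted p = 0.0156) and AT2G20560 by 1.92 ± 0.35 (SE; adjusted p = 0.00177). The other 3 had 1.48 (adjusted p = 0.125) for ATHSP22.0, 1.41 (adjusted p = 0.0982) for AT2G29500 and 1.12 (adjusted p = 0.150) for AT5G37670. With shoots fitted alone all 7 passed over this interval, and leaving out single arrays gave between 2 and 6.

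Averaged over the 6 times, 4 genes read higher in roots than in shoots, where 22.4% of probe sets did. The differences, roots minus shoots, were 2.80 ± 0.21 (SE; adjusted p = 1.34e-09) for AT2G29500, 2.75 ± 0.27 (SE; adjusted p = 5.19e-08) for AT1G53540, 2.03 ± 0.20 (SE; adjusted p = 6.29e-08) for AT5G48570 and 1.61 ± 0.14 (SE; adjusted p = 1.46e-08) for AT2G20560. ATHSP22.0 differed by 0.79 ± 0.24 (SE; adjusted p = 0.00503) and HSA32 by 0.38 ± 0.15 (SE; adjusted p = 0.0269), both under the 2-fold limit, and AT5G37670 by 0.15 ± 0.19 (SE; adjusted p = 0.453). At 0.5 h 2 of the genes were already higher in roots, against 24.2% of probe sets, AT2G29500 by 2.03 ± 0.52 (SE; adjusted p = 0.00245) and AT2G20560 by 1.95 ± 0.35 (SE; adjusted p = 1.48e-04). At 12 h 6 were higher in roots, all but AT5G37670, against 21.8% of probe sets, and without replicate 2 of the 12 h roots 5 were, HSA32 standing at 0.99, adjusted p = 0.0351, under the 2-fold limit. At 24 h 5 genes were called, against 40.9% of probe sets in either direction. Of these 4 were higher in roots, at 3.29 for AT1G53540, 2.55 for AT2G29500, 2.39 for ATHSP22.0 and 1.86 for AT5G48570. HSA32 was lower in roots at 24 h, where 18.8% of probe sets were, at -1.19 ± 0.37 (SE; adjusted p = 0.0108). That call ended without replicate 2 of the 24 h roots (-0.94, adjusted p = 0.0959) and without replicate 1 of the 24 h shoots (-0.96, adjusted p = 0.0931).

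Whether a change differed between the tissues was tested directly, as the root change from 0.5 h minus the shoot change. At 1 h no gene passed, against 1.44% of probe sets in either direction. At 3 h 1 passed, AT2G29500 at 2.08 ± 0.73 (SE; adjusted p = 0.0435), against 18.6%, and at 6 h 1, AT1G53540 at 2.50 ± 0.94 (SE; adjusted p = 0.0422), against 29.9%. At 12 h 3 passed, against 20.5%: AT1G53540 at 4.32 ± 0.94 (SE; adjusted p = 0.00315), ATHSP22.0 at 3.11 ± 0.82 (SE; adjusted p = 0.0100) and AT5G48570 at 2.24 ± 0.71 (SE; adjusted p = 0.0253), each with the larger change in roots. At 24 h 2 passed, in opposite directions, against 17.4%: ATHSP22.0 changed more in roots, by 2.61 ± 0.82 (SE; adjusted p = 0.0284), and AT2G20560 changed more in shoots, with -1.44 ± 0.50 (SE; adjusted p = 0.0451). HSA32 was close to the limit on the same side as AT2G20560, at -1.45 ± 0.52 (SE; adjusted p = 0.0516), and passed with both 12 h root arrays left out, at -1.45, adjusted p = 0.0191. AT1G53540, not called at 24 h in the main fit, lay on the side of ATHSP22.0. With single arrays left out it stood at between 2.12 and 2.61, and whether it was called depended on the array left out. Counts of 1 to 3 among 7 genes, read against these shares, are no result about the genes as a set. Of these 7 differences, those of AT1G53540 and ATHSP22.0 at 12 h passed under every alternative run. AT2G20560 at 24 h missed under 22 of 36 alternatives, AT1G53540 at 6 h under 19 of 36, AT2G29500 at 3 h under 16 of 36, AT5G48570 at 12 h under 7 of 35 and ATHSP22.0 at 24 h under 6 of 36. Without replicate 1 of the 12 h roots AT1G53540 stood at 3.49 and ATHSP22.0 at 4.19, and without replicate 2 at 5.15 and 2.02. For AT5G48570 the 12 h value without replicate 1 was 1.16, adjusted p = 0.104.

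A wider list of 80 heat shock loci, chosen with earlier results of these data known, placed the 7 genes among other chaperones. It held 20 loci with a probe set of 1 gene, of which 19 were tested: 6 of 15 small heat shock protein loci, 2 of 14 HSP70 loci and 11 of 20 co-chaperones and related proteins. The heat shock factors, the HSP100 and the HSP90 loci were not analysed here. At 24 h 6 of the 19 were higher and 0 lower in roots, where 8.02% of all probe sets were higher and 6.53% lower. In shoots 6 were higher and 1 lower, where 7.48% were higher and 6.96% lower. The list medians were 0.46 in roots and 0.77 in shoots. At 12 h 6 were higher and 1 lower in roots, against 6.84% and 6.71% of all probe sets. Without replicate 1 of the 12 h roots the count higher was 4, and without replicate 2 it was 9, with 1 lower in each case. In shoots 3 were higher and 1 lower at 12 h, against 7.55% and 6.50%. The filter on signal applied to this list too, so calls of genes that passed it through later arrays are not independent of it.

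Among the small heat shock proteins of that list, AT1G52560 read 548 and 497 after 24 h against 6.66 and 15.6 at 0.5 h in roots, and 81.7 and 70.4 after 24 h against 1.32 and 0.799 at 0.5 h in shoots. It rose by 5.38 ± 0.52 (SE; adjusted p = 4.44e-06) in roots and 4.59 ± 0.52 (SE; adjusted p = 5.97e-06) in shoots. In roots, AT5G51440, a mitochondrial small heat shock protein, rose by 3.46 ± 0.96 (SE; adjusted p = 0.0113), and AT1G54050 by 3.14 ± 0.59 (SE; adjusted p = 8.83e-04), while their shoot differences of 1.90 (adjusted p = 0.148) and 1.42 (adjusted p = 0.0762) were not called. AT2G19310 rose by 1.69 in roots and 2.05 in shoots. AT5G54660 was called in neither tissue, at 0.46 (adjusted p = 0.220) in roots and -0.08 (adjusted p = 0.870) in shoots. AT4G21870 had shoot signals of 83.2 and 82.2 after 24 h against 413 and 594 at 0.5 h. It was lower in shoots at 24 h, at -2.55 ± 0.21 (SE; adjusted p = 2.91e-07), and already at 3 h, at -2.55 ± 0.21 (SE; adjusted p = 4.43e-07). In roots it was lower at 12 h, at -1.17 ± 0.21 (SE; adjusted p = 8.47e-04), and at 24 h had -0.79 (adjusted p = 0.00988), under the 2-fold limit.

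Of the partners of HSP70, Fes1A, a co-chaperone that protects HSP70 from degradation, read 1181 and 1343 after 24 h against 136 and 123 at 0.5 h in roots. It rose there by 3.26 ± 0.57 (SE; adjusted p = 5.31e-04), and its root change exceeded its shoot change by 2.31 ± 0.80 (SE; adjusted p = 0.0446). Hop3, which links HSP70 to HSP90, rose by 1.57 ± 0.35 (SE; adjusted p = 0.00287) in roots and 2.38 ± 0.35 (SE; adjusted p = 8.27e-05) in shoots, and its relative Hop2 by 1.06 ± 0.18 (SE; adjusted p = 2.86e-04) in shoots. The HSP70 genes AT3G09440 and Hsp70-2 were called in shoots, at 1.92 ± 0.30 (SE; adjusted p = 1.29e-04) and 1.70 ± 0.30 (SE; adjusted p = 4.58e-04). In roots at 24 h their differences were 0.82 (adjusted p = 0.0407) and 0.93 (adjusted p = 0.0250), under the 2-fold limit. The plot of 24 h changes sets the tissues side by side.

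**Figure D4:**
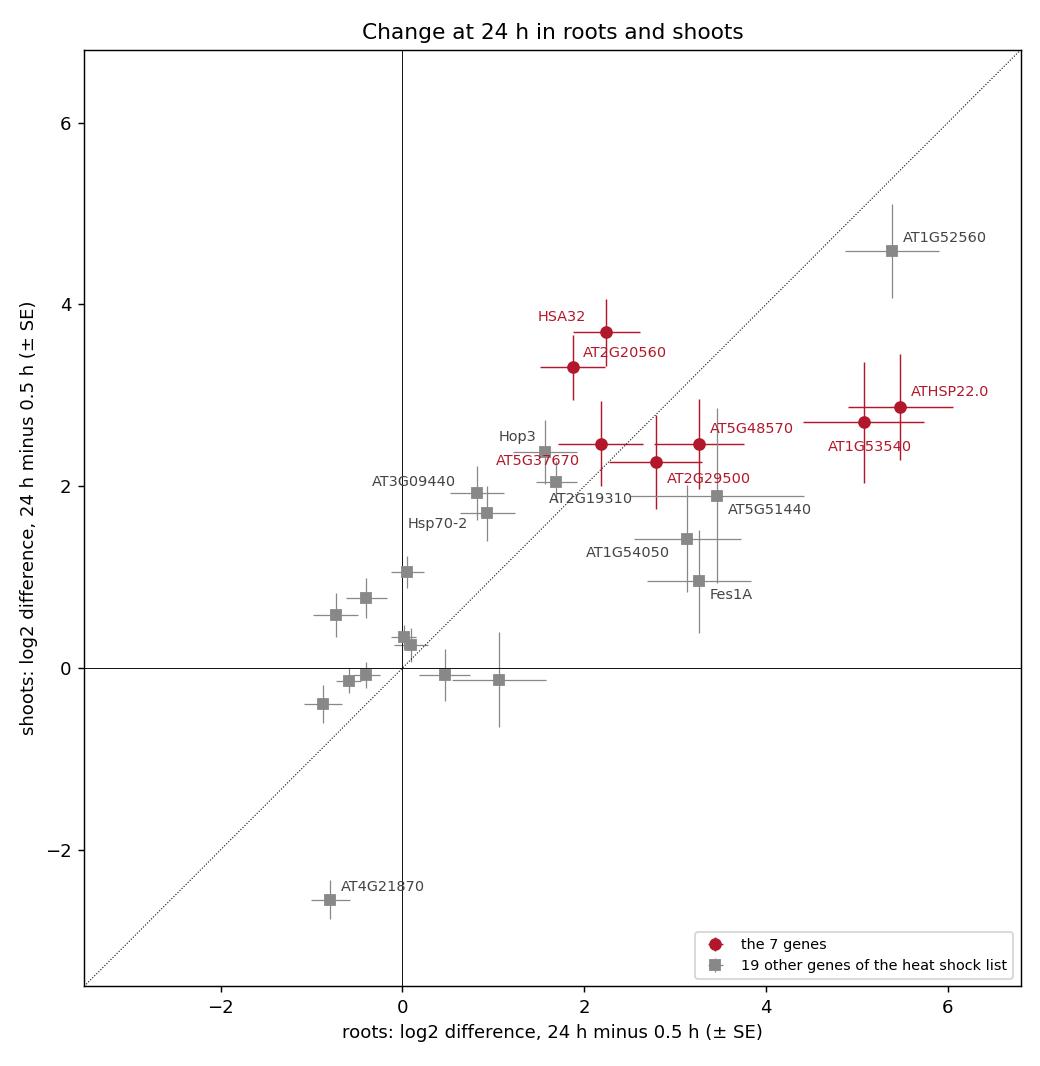
Log2 difference between 24 h and 0.5 h of salt in roots (horizontal) and shoots (vertical), with standard errors, for the 7 genes (circles) and 19 other genes of the heat shock list (squares). The dotted line marks equal change. ATHSP22.0 and AT1G53540 lie below it, HSA32 and AT2G20560 above it, and AT4G21870 lies below 0 in both tissues.

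The 7 profiles were also compared with each other. Across the 12 group means, each tissue centred on its own mean, the 21 pairs of genes correlated at between 0.80 (ATHSP22.0 with HSA32) and 0.95 (AT2G20560 with HSA32), a description over means that share arrays, treatment and a late maximum. The other genes most like the mean of the 7 profiles were AT5G07330 (r = 0.95), AT5G22860 (0.95), AT1G14730 (0.95), AT1G55530 (0.94), PPDK (0.93), DELTA-OAT (0.93), AT1G52560 (0.93) and AT3G07090 (0.92). For single genes the closest were Hop3 for HSA32 (0.99), AT2G28320 for AT2G20560 (0.97), FDH, formate dehydrogenase, for ATHSP22.0 (0.96), AT1G14730 for AT5G48570 (0.96), Fes1A for AT1G53540 (0.96), Phox4 for AT2G29500 (0.95) and DELTA-OAT, an aminotransferase of ornithine, for AT5G37670 (0.95). Next came AT5G25450 for HSA32 (0.97), AT3G07090 for AT2G20560 (0.96), DELTA-OAT for ATHSP22.0 (0.96), AT5G22860 for AT5G48570 (0.94), AT2G18480 for AT1G53540 (0.95), AT5G35320 for AT2G29500 (0.93) and AT5G53330 for AT5G37670 (0.94).

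Ordered by mean signal over the 12 groups, ATHSP22.0, AT1G53540, AT2G29500, AT5G48570 and AT2G20560 were highest in roots at 24 h, and HSA32 and AT5G37670 in shoots at 24 h. In that order, the ranges of neighbouring groups overlapped in 11 of 11 pairs for AT5G37670, 9 of 11 for AT1G53540, 8 for ATHSP22.0, 8 for AT2G29500, 8 for AT5G48570, 7 for HSA32 and 5 for AT2G20560. Gaps with no overlap set off both late root groups and the 24 h shoots of ATHSP22.0 from every other group. For HSA32 the 24 h shoots stood clear at the top, with the 12 and 24 h roots next. For AT2G29500 the 4 root groups from 3 h on stood above the 24 h shoots, whose range overlapped the roots at 0.5 h and at 1 h.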

How the data were processed

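Total RNA of 24 samples was hybridised to Arabidopsis arrays, and the signal intensity of each probe set, on a linear scale, was taken from the table the authors deposited. MAS5 is named in the submitters' processing notes, its version not given in the sources used here. With 2% left out at each end, every array had a trimmed mean of 100.01. Signals were used as log2(signal + 2.19), the constant being the 10th percentile of all values. Probe sets were kept if at least 2 arrays reached 41.7, which left 15195 of 22810, with 64 control probe sets out. The number of arrays limits the precision. No columns of other samples were present.

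Groups were taken from the titles. One model with a mean for each of 12 tissue and time groups was fitted with limma 3.58.1 in R 4.3.3 (lmFit, eBayes with trend; two-sided moderated test, 12 residual degrees of freedom), and p-values were adjusted by Benjamini-Hochberg over all probe sets kept within a comparison. The code was tested on simulated data. GEO's platform annotation gave 1 gene for 13513 probe sets, several for 503 and none for 8794, and 13436 were matched through gene identifiers to RefSeq names of TAIR10.1.

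The genes named are the 7 genes, the called loci of the wider heat shock list at 12 or 24 h (at most the 10 largest differences per tissue), and the genes of most similar profile (8 for the mean, 2 for each gene). AT5G54660, called in no tissue at 24 h, was added after its values were seen. The genes, lists and tests were chosen with earlier results of these data known. Same-numbered arrays were not shown to be paired: the correlation of their deviations with those of 0.5 h lay between -0.126 and 0.215. Alternatives covered the constant, scaling, filter, variance trend, fit within each tissue, replicate block, fold limit, starting time and every array left out in turn, and, chosen after seeing the data, both 12 h root arrays left out, the changes between successive times and the tissue differences at single times. Promoter and protein sequences and untreated plants were not analysed here.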

Additional observations from a re-analysis of the deposited data

Results flagged for a closer look

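A set of 7 values met a test of the difference itself, the root change from 0.5 h minus the shoot change in the limma model. They were 1 of the 7 genes at 3 h, 1 at 6 h, 3 at 12 h and 2 at 24 h, against 18.6%, 29.9%, 20.5% and 17.4% of all probe sets, so that the counts are no result about the genes as a set. At 12 h AT1G53540 had 4.32 ± 0.94 (SE; adjusted p = 0.00315) and ATHSP22.0 3.11 ± 0.82 (SE; adjusted p = 0.0100), with ranges over the alternatives of 3.36 to 5.28 and 2.02 to 4.19. The third at 12 h was AT5G48570, at 2.24 ± 0.71 (SE; adjusted p = 0.0253), with adjusted p between 8.17e-05 and 0.104. At 24 h ATHSP22.0 had 2.61 ± 0.82 (SE; adjusted p = 0.0284), with adjusted p between 0.00404 and 0.102, and AT2G20560 had -1.44 ± 0.50 (SE; adjusted p = 0.0451), with adjusted p between 0.00854 and 0.175. At 6 h AT1G53540 had 2.50 ± 0.94 (SE; adjusted p = 0.0422), with adjusted p between 0.0163 and 0.141, and at 3 h AT2G29500 had 2.08 ± 0.73 (SE; adjusted p = 0.0435), with adjusted p between 0.0125 and 0.210. In 6 of these 7 the root change was the larger, and for AT2G20560 the shoot change was. Without replicate 1 of the 3 h roots the AT2G29500 value was 1.26.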

How the results depend on the processing

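The 7 calls at 24 h in roots and the 4 genes higher in roots over all times came out under every alternative run. Of the single values over all alternatives, 5329 kept their side of the limits, of which 56 turned sign with no call either way, 140 lost a call, 61 gained one and 0 changed direction with a call. Leaving out 1 array at a time gave, in roots, 0 genes at 1 h, 0 to 4 at 3 h, 4 to 6 at 6 h, 6 to 7 at 12 h and 7 to 7 at 24 h. In shoots it gave 0 at 1 and 3 h, 0 to 2 at 6 h, 0 to 3 at 12 h and 6 to 7 at 24 h. For the root minus shoot change it gave 0 at 1 h, 0 to 2 at 3 h, 0 to 2 at 6 h, 2 to 4 at 12 h and 0 to 4 at 24 h, and for roots minus shoots 4 to 4 over all times, 2 to 3 at 0.5 h, 5 to 6 at 12 h and 4 to 4 at 24 h. For successive times it gave 0 to 4 (1 to 3 h, roots), 0 to 2 (6 to 12 h, roots) and 2 to 6 (12 to 24 h, shoots). In shoots at 6 h the count of 1 became 0 with the constant doubled or at 16, with arrays centred on their medians, with quantile normalization or without the filter, and 2 with each tissue alone or both 12 h root arrays out. In shoots at 12 h the count of 2 became 1 with the constant at 16 or without the filter. Of the root minus shoot changes, the 1 gene at 3 h became 0 without the filter, and the 1 at 6 h became 0 with the constant halved or without the filter and 2 without the 12 h root arrays. The 2 at 24 h became 4 with the constant doubled or without the 12 h root arrays, and 1 with median centring, with quantile normalization, without the filter, without the variance trend or against 1 h. With each tissue alone, the 4 genes rising between 1 and 3 h in roots became 0, the 2 between 6 and 12 h became 0, and the 4 between 12 and 24 h in shoots became 7. On the wider list the shoot count of 2 at 3 h became 0 with the constant at 16 and 1 against 1 h, and the count of 1 at 6 h became 0 under both. The cause of these shifts was not tested. The replicate block within each tissue changed no count of the 7 genes, with 7 called at 24 h in roots under the block and 7 in shoots. No detection calls were used, so that the lowest signals, such as 1.99 for ATHSP22.0 at 1 h in roots, have no known limit of detection.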
